A study of Mus musculus with 30 samples.

Results

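This comparison sets 10 B16 melanomas that secreted IFNα4 (B16.IFNα4.gB.luc) against 10 control melanomas that carried GFP alone (B16.GFP.gB.luc), 20 of the 30 tumors of a bulk RNA-seq study of tumors that secrete single IFN-I subtypes. The tumors were chosen by their labels, and all 15905 genes that averaged 10 or more counts across the 20 tumors, of 39676 gene identifiers counted, were compared. B16-F10, a mouse melanoma line of C57BL/6 origin, had been transduced with retroviruses that carried GFP without an interferon, or murine IFNα4 together with enhanced GFP. All lines also carried herpes simplex virus glycoprotein B with CFP and luciferase with puromycin resistance. They were sorted or selected as stable lines, so the interferon came from the melanoma cells under a viral promoter and from no other engineered cell. The lines grew under the skin of female C57BL/6 mice with an intact immune system, typically 8 to 12 weeks old, and each whole tumor was taken on day 8. The other 10 tumors secreted IFNα9 (B16.IFNα9.gB.luc) and are described here only for the direct difference between both interferon types, but all 30 tumors entered the fit and share its estimate of the spread.

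IFN-I binds one receptor on nearly all cells and switches on the classical interferon-stimulated genes (ISGs), which encode sensors, antiviral effectors and the signaling chain itself. It also slows cell division, raises antigen presentation by MHC class I, activates NK cells and dendritic cells, recruits monocytes through chemokines, and can restrain blood vessel growth. Interferon-treated melanoma cells can lose pigment genes, which depend on the transcription factor MITF. The question here was which gene programs other than the classical ISGs differed between tumors that made IFNα4 and tumors that did not.

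Libraries held 14598517 to 19788383 counts each, which limits precision mainly for genes under 1 CPM (counts per 1000000 counted reads, after scaling). Ifna4 (ENSMUSG00000070904.4, chromosome 4, 88841861 to 88842421 of GRCm38) had 81 to 188 counts in each IFNα4 tumor and 0 in each control, as the labels say. Control tumor 7 stood apart, with a scaling factor of 0.770 against 0.858 to 1.10 for the other 19 tumors. It had the highest summed level of pigment and mitosis genes and the lowest of the leukocyte, T cell and collagen genes among controls. Host tissue was in every dissection: the summed level of 23 skeletal muscle genes ran from 6272 to 30477 CPM in controls and from 7964.5 to 27651 CPM in IFNα4 tumors, of which 2 genes rose and 0 fell. No marker of the melanocyte, leukocyte or endothelial lists that passed the filter was at 0 in every control or every IFNα4 tumor. The samples are labelled as biological replicates, n = 10 per type throughout. The study names a single transduced line for each type, so IFNα4 and any other difference between the lines cannot be told apart.

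Of the 15905 genes, 10429 were differentially expressed genes (DEGs, adjusted p under 0.05 in edgeR's quasi-likelihood test), which is 65.6% of all genes tested. Among them, 4978 were higher (31.3% of genes tested) and 5451 lower (34.3%) in IFNα4 tumors. Of the list of classical ISGs, 84 of 86 tested members rose, with a median log2 fold change of 2.79, and the other 10345 DEGs lay outside it. The length of the list bounds the first count, and other genes that interferon induces lie outside it. Most differences were small: 71.4% of the DEGs changed by less than 2-fold, whereas 1642 genes (10.3%) rose and 1343 (8.44%) fell by at least 2-fold. For 1361 genes (8.56%) every IFNα4 tumor lay above every control, and for 1587 (9.98%) every IFNα4 tumor lay below. The median log2 fold change over all genes tested was 0.008, and the counts of each list below are to be read against these shares. A single number in parentheses after a gene is its log2 fold change, IFNα4 against control tumors.

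**Figure D1:**
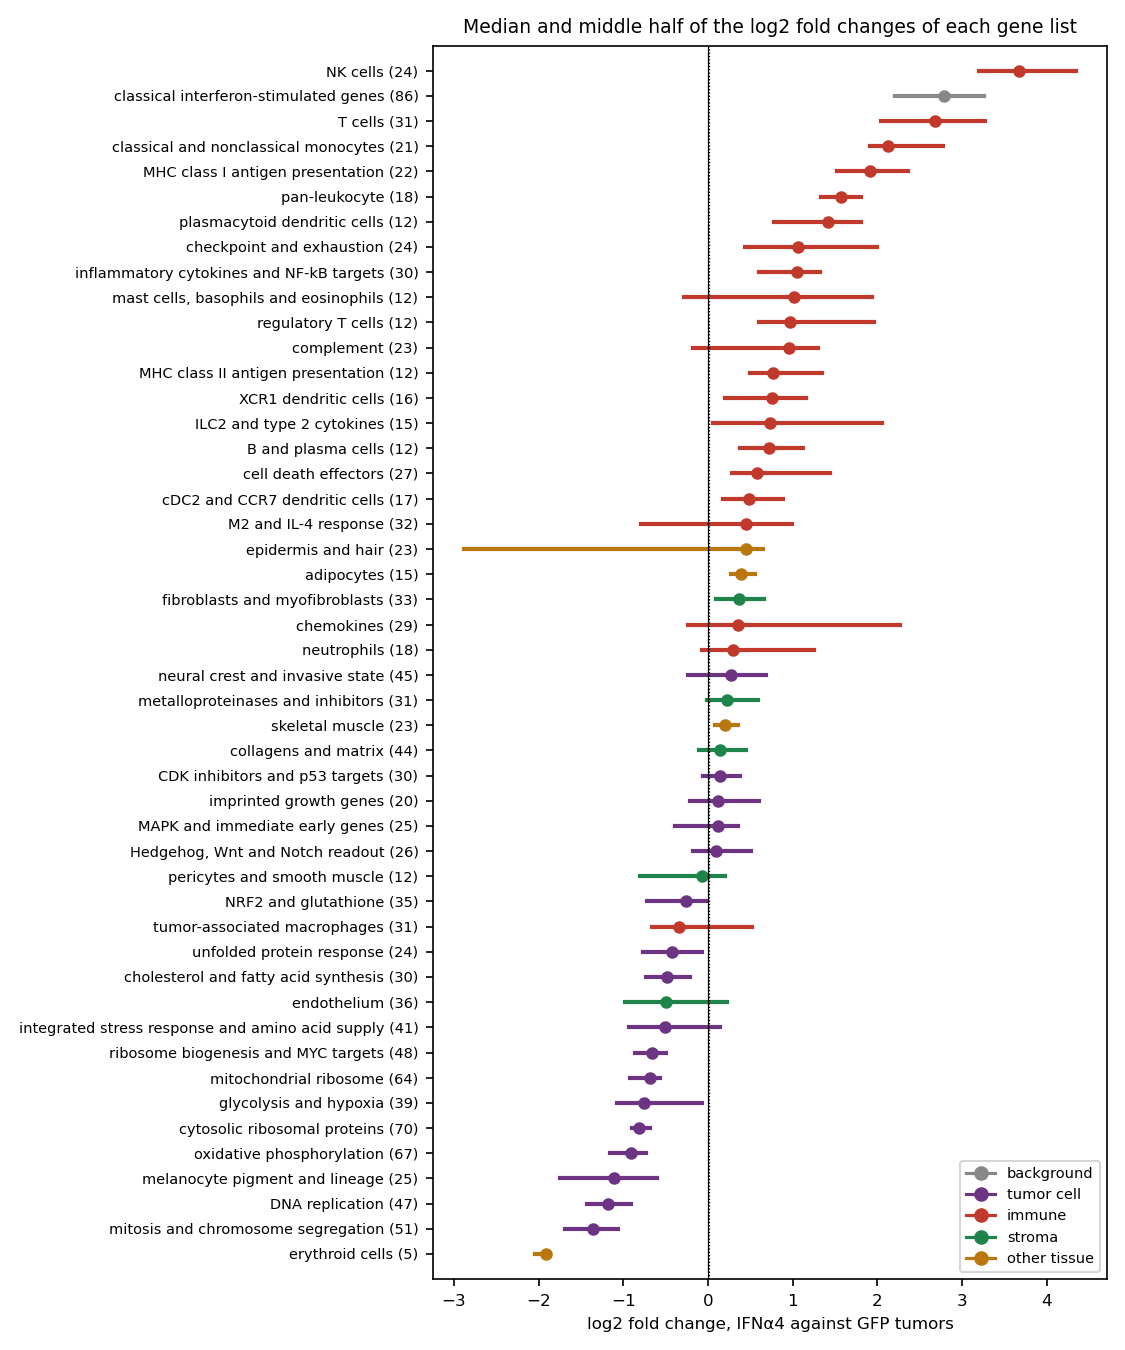
Median (point) and interquartile range (bar) of the log2 fold changes of the tested genes in each of 48 gene lists, IFNα4 against control tumors, with the number of genes tested in brackets and the kind of list in color. NK cell genes had the highest median, 3.67, and among lists of over 5 genes, mitosis genes had the lowest, −1.36.

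**Figure D2:**
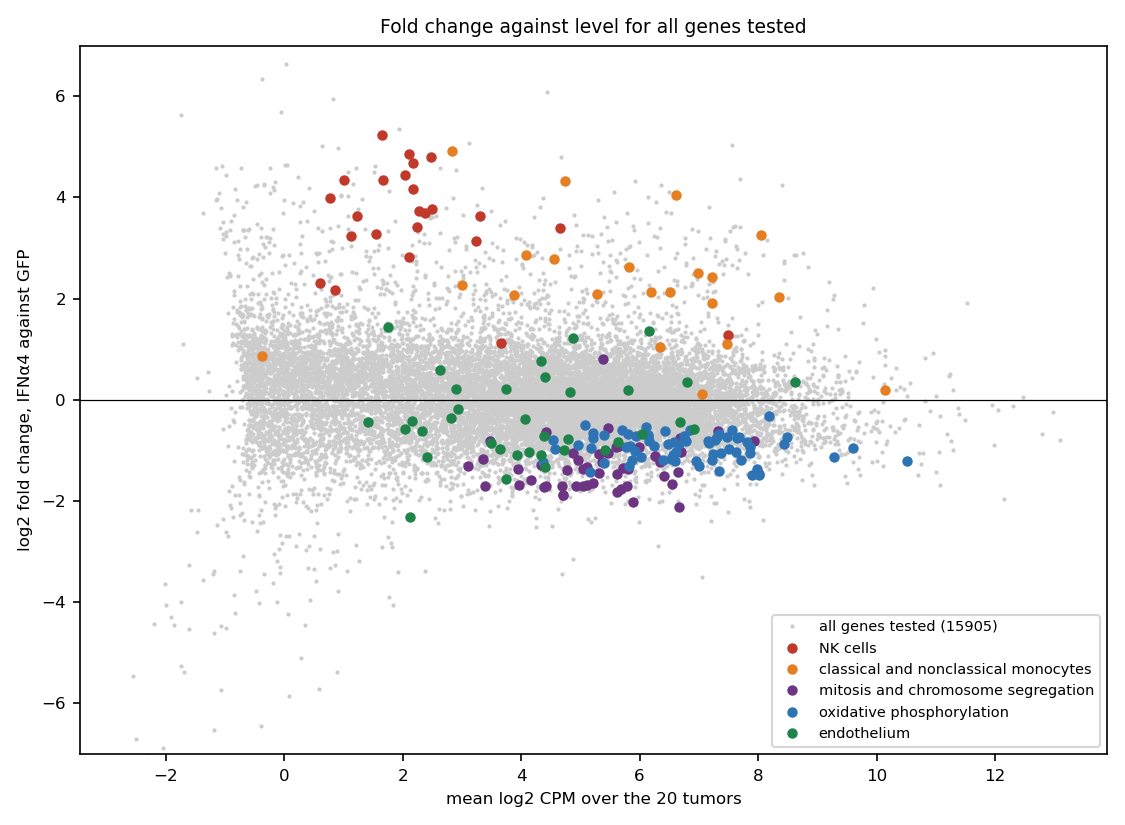
Log2 fold change of every gene tested (vertical axis) against its mean log2 CPM over the 20 tumors (horizontal axis), with 5 lists in color. NK cell and monocyte genes lay above 0, mitosis and oxidative phosphorylation genes below 0 with 1 exception, and 52 genes with a log2 fold change beyond 7 in either direction lie outside the vertical axis.

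Genes of cell division fell almost without exception. Of 47 DNA replication genes tested, 44 fell and 0 rose, 32 of them by at least 2-fold, with a median log2 fold change of −1.18. Of 51 genes of mitosis and chromosome segregation, 50 fell and 1 rose, 41 fell by at least 2-fold, and the median was −1.36. For 36 and 47 genes of these lists every IFNα4 tumor lay below every control. Rrm2, the small subunit of ribonucleotide reductase that makes deoxynucleotides, was at 256 to 651 CPM (median 295) in control tumors and 54.9 to 75.5 CPM (median 64.6) in IFNα4 tumors. The ranges did not overlap (log2 fold change −2.40 ± 0.16 (SE), adjusted p = 9.95e-14). Cdk1, the kinase that drives entry into mitosis, was at 150.2 to 506 CPM (median 194) in control tumors and 44.4 to 60.1 CPM (median 49.1) in IFNα4 tumors. Cdk1 had a log2 fold change of −2.11 ± 0.18 (SE), adjusted p = 2.52e-11. Its partner Ccnb1, cyclin B1, was at 71.5 to 282 CPM (median 107) in control tumors and 27.01 to 34.2 CPM (median 31.2) in IFNα4 tumors. Ccnb1 had a log2 fold change of −2.01 ± 0.18 (SE), adjusted p = 8.29e-11. Neither pair of ranges overlapped, and the highest control in both cases was tumor 7. Top2a, topoisomerase IIα, was at 343 to 626 CPM (median 378) in control tumors and 132 to 187 CPM (median 156) in IFNα4 tumors. Top2a had a log2 fold change of −1.47 ± 0.12 (SE), adjusted p = 1.98e-11. The replicative helicase subunit Mcm2 (−1.99), the histone chaperone subunit Chaf1b (−1.94), the mitotic kinase Plk1 (−1.88), the licensing factor Cdc6 (−1.51) and the sliding clamp Pcna (−1.12) fell as well. The proliferation marker Mki67 moved less, from 257 to 465 CPM (median 315) in controls to 146 to 246 CPM (median 186), with no overlap (log2 fold change −0.81 ± 0.14 (SE), adjusted p = 1.08e-05). The exception was Pttg1, securin, which rose (log2 fold change 0.80 ± 0.10 (SE), adjusted p = 9.88e-08) with ranges that overlapped slightly. Without control tumor 7 the counts of 44 and 50 lower genes were the same in number, with medians of −1.02 and −1.26. Both kinds of cell, malignant and infiltrating, divide, and in bulk tissue fewer cells of a type and less RNA per cell cannot be told apart, here and in every list that follows.

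The same genes also separated the interferon types. In the direct test of IFNα4 against IFNα9 tumors, in which 7.22% of all genes were higher and 10.5% lower with IFNα4, 34 of the 47 replication genes and 46 of the 51 mitosis genes were lower with IFNα4, and 0 and 1 were higher. Their median differences were −0.51 and −0.80 on the log2 scale. Counts of this test depended on the tumors fitted: 1148 genes were higher with IFNα4 in the fit of all tumors, 1755 without control tumor 7 and 1975 in a fit of only the 20 interferon tumors. Top2a was at 212 to 472 CPM (median 296) in IFNα9 tumors and differed from IFNα4 by −0.99 ± 0.12 (SE), adjusted p = 1.42e-06. For Mki67 the IFNα9 tumors, at 238 to 503 CPM (median 316), spanned the control range, and the difference of IFNα4 from IFNα9 was −0.86 ± 0.14 (SE), adjusted p = 5.95e-05.

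Because the mitosis genes moved together, their promoters were searched, in RefSeq windows of 300 bases from 250 before to 50 after a start site (GRCm38.p6), for letters that many of them are known to share: the cell cycle genes homology region (CHR, TTTGAA, or TTCAAA on the other strand) and the CCAAT box (CCAAT or ATTGG), which binds NF-Y. Windows were found for 10713 of the 15905 genes, 1 per gene. The CHR letters stood in 31 of 45 mitosis windows (68.9%) against 12.9% of all windows, and in 6 of 40 DNA replication windows. CCAAT letters stood in 34 of the 45 mitosis windows (75.6%), 24 of 40 DNA replication windows, 18 of 23 cholesterol and fatty acid synthesis windows (78.3%) and 38.2% of all windows. These matches are descriptions of letters, not of binding, and the motifs were chosen with the falls known. The windows of Cdk1 (chr10:69352863-69353162, minus strand) and Plk1 (chr7:122159185-122159484, plus strand) are shown as members of the list with both motifs, with the CHR and CCAAT letters in capitals. The Cdk1 window held 2 CHR and 3 CCAAT matches and the Plk1 window 1 of each, and no match overlapped another.
Cdk1: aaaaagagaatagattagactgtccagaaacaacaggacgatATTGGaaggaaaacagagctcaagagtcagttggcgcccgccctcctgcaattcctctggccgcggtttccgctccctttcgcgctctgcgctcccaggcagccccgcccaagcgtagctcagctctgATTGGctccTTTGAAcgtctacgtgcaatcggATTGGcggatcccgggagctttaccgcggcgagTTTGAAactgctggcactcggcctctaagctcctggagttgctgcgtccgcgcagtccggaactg
Plk1: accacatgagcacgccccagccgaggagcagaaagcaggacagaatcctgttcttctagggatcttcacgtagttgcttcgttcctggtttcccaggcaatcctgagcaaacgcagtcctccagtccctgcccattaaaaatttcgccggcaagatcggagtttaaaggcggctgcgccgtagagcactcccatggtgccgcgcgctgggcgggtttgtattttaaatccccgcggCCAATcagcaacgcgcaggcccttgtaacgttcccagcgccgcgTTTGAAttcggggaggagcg

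Inhibitors of the cell cycle and p53 targets did not mirror this fall as a group: of 30 tested, 11 rose, 6 fell and the median log2 fold change was 0.14. Cdkn1a, p21, was at 242 to 353 CPM (median 316) in control tumors and 294 to 396 CPM (median 360.3) in IFNα4 tumors, overlapping ranges with a small difference (log2 fold change 0.19 ± 0.08 (SE), adjusted p = 0.0301) that did not pass with the filterByExpr filter (adjusted p = 0.0648) or with no filter (adjusted p = 0.0507). The p27 gene Cdkn1b did not pass the test (log2 fold change −0.10 ± 0.09 (SE), adjusted p = 0.343). These counts are near the shares over all genes for higher genes and below them for lower genes, and the 3 genes whose tumors did not overlap are named next. Mdm2, the ubiquitin ligase that restrains p53, was at 50.7 to 99.9 CPM (median 84.7) in control tumors and 109 to 159 CPM (median 126) in IFNα4 tumors, with no overlap (log2 fold change 0.70 ± 0.10 (SE), adjusted p = 9.56e-07). The DNA repair gene Ddb2 (log2 fold change 1.27 ± 0.14 (SE), adjusted p = 3.69e-09) and the death receptor gene Eda2r (log2 fold change 1.19 ± 0.13 (SE), adjusted p = 2.23e-09) also had every IFNα4 tumor above every control. Eda2r was further higher than in IFNα9 tumors (0.91 ± 0.12 (SE), adjusted p = 6.49e-06), whereas Ddb2 did not pass that test (−0.05 ± 0.13 (SE), adjusted p = 0.843). Ccnd1, cyclin D1, rose slightly (0.36), against the direction of the mitotic cyclins.

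Genes for making ribosomes and ATP fell almost without exception, but by less. All 70 cytosolic ribosomal protein genes tested fell, 12 of them by at least 2-fold, with a median log2 fold change of −0.82 and a range of −1.35 to −0.40. Their summed level was 27976 to 72439.8 CPM in controls (median 32232) and 20084 to 25316 CPM in IFNα4 tumors (median 22537), without overlap, and control tumor 7 was the highest. Of 64 genes of the mitochondrial ribosome 61 fell, of 67 oxidative phosphorylation genes all 67 fell (median −0.91, range −1.49 to −0.33), and of 48 genes of ribosome biogenesis and MYC targets 44 fell and 1 rose. Atp5b, the catalytic subunit of ATP synthase, was at 1575 to 3974 CPM (median 2158) in control tumors and 779.7 to 1181 CPM (median 979) in IFNα4 tumors. Atp5b had a log2 fold change of −1.21 ± 0.12 (SE), adjusted p = 4.12e-10. Atp5o of the same enzyme (−1.49), the chaperonin Hspd1 (−1.51), the mitochondrial ribosomal gene Mrpl12 (−1.61) and nucleolin, Ncl (−0.59), fell as well. Ppargc1a, PGC-1α, a coactivator of mitochondrial genes that melanoma cells express under MITF, was at 295 to 725 CPM (median 434) in control tumors and 124 to 187 CPM (median 159) in IFNα4 tumors. Ppargc1a had a log2 fold change of −1.48 ± 0.16 (SE), adjusted p = 3e-09. Myc itself fell with overlapping ranges (log2 fold change −0.59 ± 0.10 (SE), adjusted p = 6.66e-06), and the fall of Mycn rested on few controls, with levels of 0.196 to 14.5 CPM (median 0.863) there and 0.565 to 1.79 CPM (median 0.769) in IFNα4 tumors. The highest were control tumors 1 and 2, and the gene did not pass with no filter (adjusted p = 0.0541). Ddx10, an RNA helicase, was the 1 riser (log2 fold change 0.22 ± 0.10 (SE), adjusted p = 0.0474), and it did not pass in 5 of 8 other settings, among them without control tumor 7 (adjusted p = 0.0692).

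**Figure D3:**
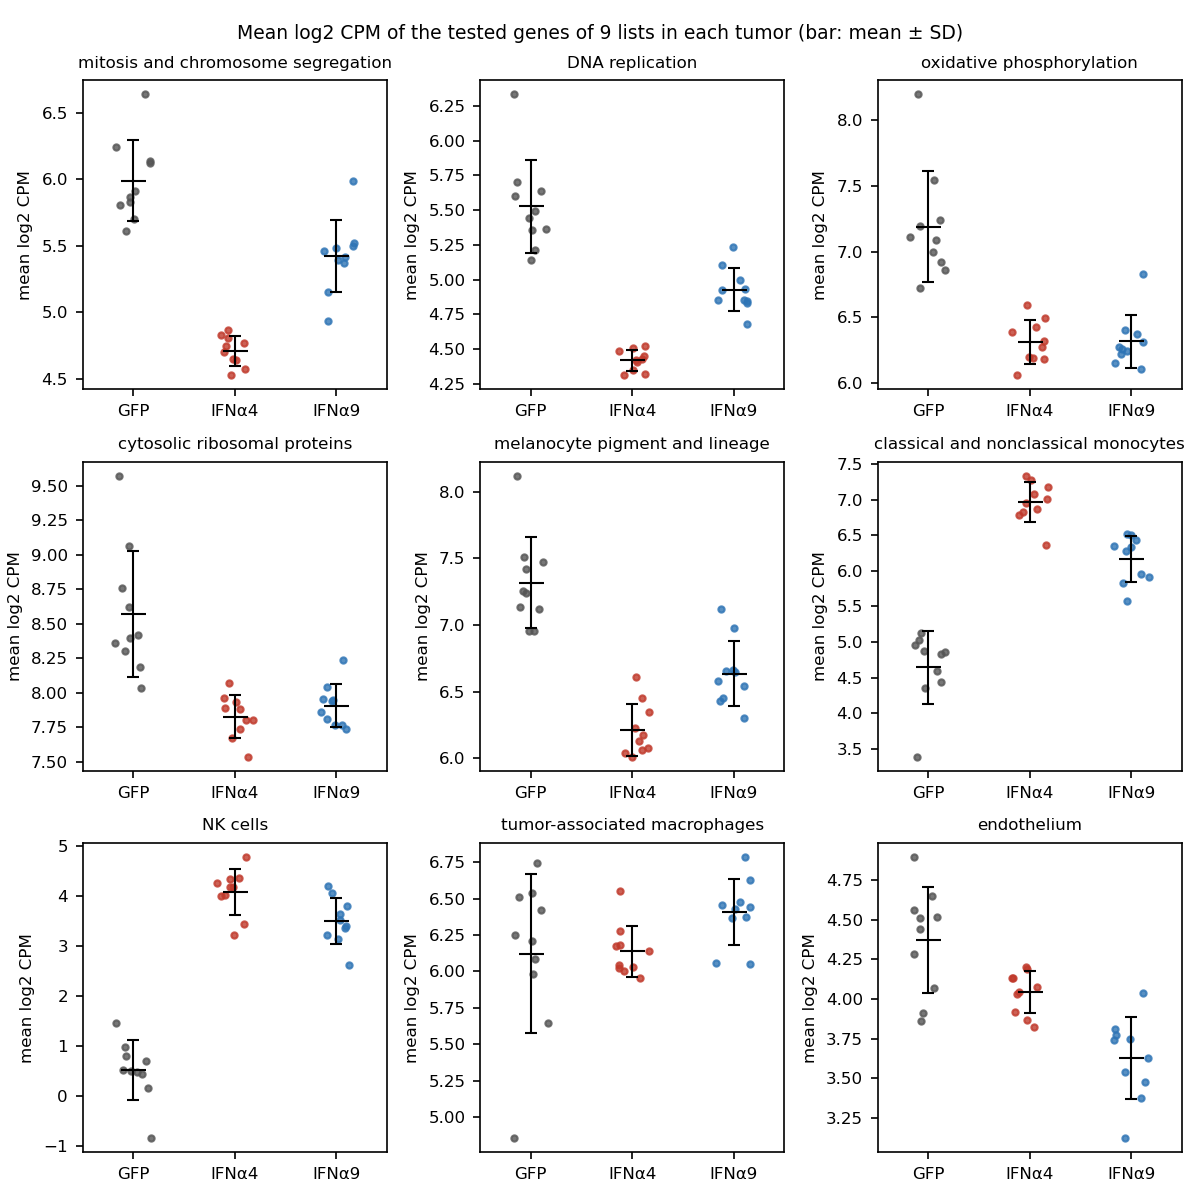
Mean log2 CPM over the tested genes of 9 lists in each of the 30 tumors, one panel per list, with points for tumors and bars for the mean ± SD of each type. The IFNα4 tumors lay below all controls for mitosis and DNA replication and above all controls for monocytes and NK cells, while for oxidative phosphorylation they overlapped the IFNα9 tumors, and control tumor 7 was the highest or lowest control in each panel.

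These 4 lists were also set against the direct test of the interferon types, in which 10.5% of all genes were lower with IFNα4. Between IFNα4 and IFNα9 tumors 2 of 70 cytosolic ribosomal protein genes, 4 of 64 of the mitochondrial ribosome, 1 of 67 of oxidative phosphorylation and 13 of 48 of ribosome biogenesis were lower with IFNα4, with median differences of −0.11, −0.10, 0.01 and −0.20. Without control tumor 7 the numbers were 8, 9, 2 and 16, and in a fit of the 20 interferon tumors alone 12, 13, 3 and 19. Atp5b was at 919 to 1395 CPM (median 1054) in IFNα9 tumors and its difference was −0.14 ± 0.12 (SE), adjusted p = 0.429. Ppargc1a, the 1 respiration gene called, was at 194 to 560.1 CPM (median 251) there (−0.87 ± 0.16 (SE), adjusted p = 0.000195). Gene length moved with the comparison: over 5 equal groups of protein-coding genes, from the shortest to the longest exon length, the median log2 fold changes were −0.13, −0.07, 0.03, 0.07 and 0.15. Pseudogenes, which for ribosomal proteins are near copies that can share reads, held 7.87 to 17.8% of counts in controls and 7.30 to 10.95% in IFNα4 tumors. The part of length and of shared reads in these falls was not tested.

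Glycolysis and the response to hypoxia fell with exceptions: 28 of 39 genes fell, 5 rose, and the median log2 fold change was −0.76. Eno1, enolase, was at 2296 to 7059 CPM (median 4125) in control tumors and 834 to 1966 CPM (median 1139) in IFNα4 tumors. Eno1 had a log2 fold change of −1.69 ± 0.18 (SE), adjusted p = 2.1e-09. Ldha, lactate dehydrogenase, was at 1737 to 4481 CPM (median 2572) in control tumors and 940.3 to 1486 CPM (median 1254) in IFNα4 tumors (log2 fold change −1.06 ± 0.14 (SE), adjusted p = 2.08e-07), again without overlap. The hypoxia-induced peptide Adm (−1.51), the brain-type aldolase Aldoc (−1.81), the glucose transporter Slc2a1 (−0.99) and the mitophagy receptor Bnip3 (−0.69) fell too. Vegfa, the main angiogenic factor induced by hypoxia, was at 108 to 314 CPM (median 192) in control tumors and 146 to 312 CPM (median 194) in IFNα4 tumors and did not pass (log2 fold change 0.01 ± 0.16 (SE), adjusted p = 0.979).

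Stress and lipid programs fell in part. Of 41 genes of the integrated stress response and amino acid supply, 24 fell and 9 rose. The serine synthesis enzyme Phgdh was at 44.1 to 152 CPM (median 65.6) in control tumors and 17.4 to 32.6 CPM (median 24.9) in IFNα4 tumors (log2 fold change −1.59 ± 0.19 (SE), adjusted p = 1.95e-08), and the asparagine synthetase gene Asns (−1.04) and the cystine importer Slc7a11 (−0.89) fell. The cysteine-making enzyme Cth had the lowest log2 fold change of the list (−1.92), whereas the cationic amino acid importer Slc7a3 rose at a low level (1.53). Of 24 unfolded protein response genes 17 fell and 2 rose. The endoplasmic reticulum chaperones Sdf2l1 (−1.38), Pdia4 (−0.95) and Hspa5 (−0.45) fell, while Ern1, the sensor kinase IRE1α, rose from 33.8 to 58.9 CPM (median 53.6) to 73.2 to 90.98 CPM (median 80.9) without overlap (log2 fold change 0.69 ± 0.08 (SE), adjusted p = 9.37e-09).

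Of 30 genes of cholesterol and fatty acid synthesis 20 fell and 1 rose, with a median of −0.48. Insig1, the sterol-sensing brake on SREBP, which is itself a SREBP target, was at 90.9 to 418 CPM (median 145) in control tumors and 35 to 56.5 CPM (median 42.9) in IFNα4 tumors. Insig1 had a log2 fold change of −1.99 ± 0.20 (SE), adjusted p = 1.29e-09. The synthesis enzymes Fdps (−1.23) and Sqle (−0.80) fell, and Fasn, fatty acid synthase, did not pass (log2 fold change −0.41 ± 0.24 (SE), adjusted p = 0.125). Of 35 NRF2 and glutathione genes 17 fell and 4 rose, led by the glutathione transferases Gsta4 (−1.70) and Gsta1 (−1.68) and by ferritin light chain, Ftl1 (−1.65). The NRF2 targets Gclc (log2 fold change 0.01 ± 0.11 (SE), adjusted p = 0.936) and Nqo1 (log2 fold change 0.30 ± 0.15 (SE), adjusted p = 0.0847) did not pass, although Nqo1 did with scaling by library totals (adjusted p = 0.0391).

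Pigment genes fell in the IFNα4 tumors: 22 of 25 tested melanocyte genes fell, 14 by at least 2-fold, and 0 rose, with a median log2 fold change of −1.11. Sox10, Pmel, Dct and Mlana were not analysed here. Tyrp1, an enzyme of melanin synthesis, was at 6130.4 to 20447 CPM (median 7804) in control tumors and 1704 to 2812 CPM (median 2455) in IFNα4 tumors. Tyrp1 had a log2 fold change of −1.97 ± 0.19 (SE), adjusted p = 4.34e-10. The rate-limiting enzyme Tyr was at 536 to 1617 CPM (median 645) in control tumors and 239 to 419.7 CPM (median 311) in IFNα4 tumors. Tyr had a log2 fold change of −1.24 ± 0.18 (SE), adjusted p = 1.13e-06. Neither pair of ranges overlapped, and both highest controls were tumor 7. The melanosome transporters Slc45a2 (−2.37) and Slc24a5 (−2.22) and the channel gene Trpm1 (−1.99) had larger falls. Mitf, the master regulator of the lineage, was at 411 to 708 CPM (median 588) in control tumors and 169.8 to 424 CPM (median 299.6) in IFNα4 tumors and fell with overlapping ranges (log2 fold change −0.99 ± 0.14 (SE), adjusted p = 4.18e-07). Without control tumor 7, 21 of the 25 genes fell, with a median of −0.99. Against IFNα9 tumors 12 of the 25 genes were lower with IFNα4 and 0 were higher, Tyrp1 by −0.81 ± 0.19 (SE), adjusted p = 0.00257, whereas Tyr did not pass (−0.27 ± 0.18 (SE), adjusted p = 0.323).

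The M-box letters bound by MITF (TCATGTG, or CACATGA on the other strand) stood in 7 of 21 promoter windows of the pigment list (33.3%) and in 2.54% of all 10713 windows. All 7 belonged to genes that fell, but so did 18 of the 21 windows of the list. Among the windows of all lower DEGs 2.58% held the letters, near the share of all windows. This is again a description of letters chosen with the falls known. The windows of Tyr (chr7:87493463-87493762, minus strand) and Tyrp1 (chr4:80833963-80834262, plus strand), the enzymes followed above, are shown with their single M-box match in capitals, 5′ to 3′ as all windows here.
Tyr: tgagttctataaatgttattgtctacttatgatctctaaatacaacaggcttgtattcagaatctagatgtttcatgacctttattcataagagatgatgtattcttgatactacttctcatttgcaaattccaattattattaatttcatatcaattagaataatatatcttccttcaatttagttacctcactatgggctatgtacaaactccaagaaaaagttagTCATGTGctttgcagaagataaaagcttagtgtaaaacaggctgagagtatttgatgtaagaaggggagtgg
Tyrp1: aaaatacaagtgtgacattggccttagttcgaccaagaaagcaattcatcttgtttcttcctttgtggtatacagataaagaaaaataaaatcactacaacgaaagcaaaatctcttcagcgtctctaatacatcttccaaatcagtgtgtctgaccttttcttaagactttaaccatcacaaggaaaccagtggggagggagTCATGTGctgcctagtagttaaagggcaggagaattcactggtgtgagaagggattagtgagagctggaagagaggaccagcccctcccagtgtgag

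The neural crest and invasive-state list moved in both directions: of 45 genes 20 rose and 7 fell, with a median log2 fold change of 0.27. Axl, a receptor kinase of the undifferentiated state, was at 70.5 to 282 CPM (median 160.4) in control tumors and 372 to 448 CPM (median 412) in IFNα4 tumors. Axl had a log2 fold change of 1.29 ± 0.14 (SE), adjusted p = 7.72e-09. Ngfr, the nerve growth factor receptor of neural crest stem cells, overlapped widely, at 0.979 to 35.7 CPM (median 5.01) in control tumors and 6.76 to 31.9 CPM (median 16.99) in IFNα4 tumors. Ngfr had a log2 fold change of 1.16 ± 0.44 (SE), adjusted p = 0.0208. The largest rises of the list were both neurofilament subunits, which form the axonal cytoskeleton. Their GENCODE M21 (GRCm38) models on chromosome 14 overlap on opposite strands, with Nefl inside the span of Nefm, and although the library kit marked strand, whether the counting used it is not given in the sources used here, so reads of one may have been counted for the other or dropped, and their values are not independent. Nefm (ENSMUSG00000022054.11, chromosome 14, 68082590 to 68124846) was at 0 to 0.456 CPM (median 0.176) in control tumors and 1.27 to 7.45 CPM (median 4.87) in IFNα4 tumors. Nefm had a log2 fold change of 4.64 ± 0.39 (SE), adjusted p = 2.26e-11. Nefl (ENSMUSG00000022055.7, chromosome 14, 68083863 to 68089095) was at 0 to 0.623 CPM (median 0.211) in control tumors and 1.21 to 8.71 CPM (median 5.32) in IFNα4 tumors. Nefl had a log2 fold change of 4.41 ± 0.47 (SE), adjusted p = 2.37e-09. The neurofilament genes were barely counted in controls and each IFNα4 tumor lay above all of them. IFNα9 tumors stayed low, at 0.13 to 0.779 CPM (median 0.409) for Nefm, and the direct differences were 3.37 ± 0.35 (SE), adjusted p = 1.23e-07 for Nefm and 4.15 ± 0.45 (SE), adjusted p = 2.26e-07 for Nefl. Rlbp1, a retinoid carrier, went the other way, from 8.03 to 43.97 CPM (median 12.9) to 0.234 to 2.02 CPM (median 0.971) (log2 fold change −4.05 ± 0.36 (SE), adjusted p = 7.12e-11). Nestin, Nes, fell slightly (−0.38) and Sox9 rose (0.64).

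**Figure D4:**
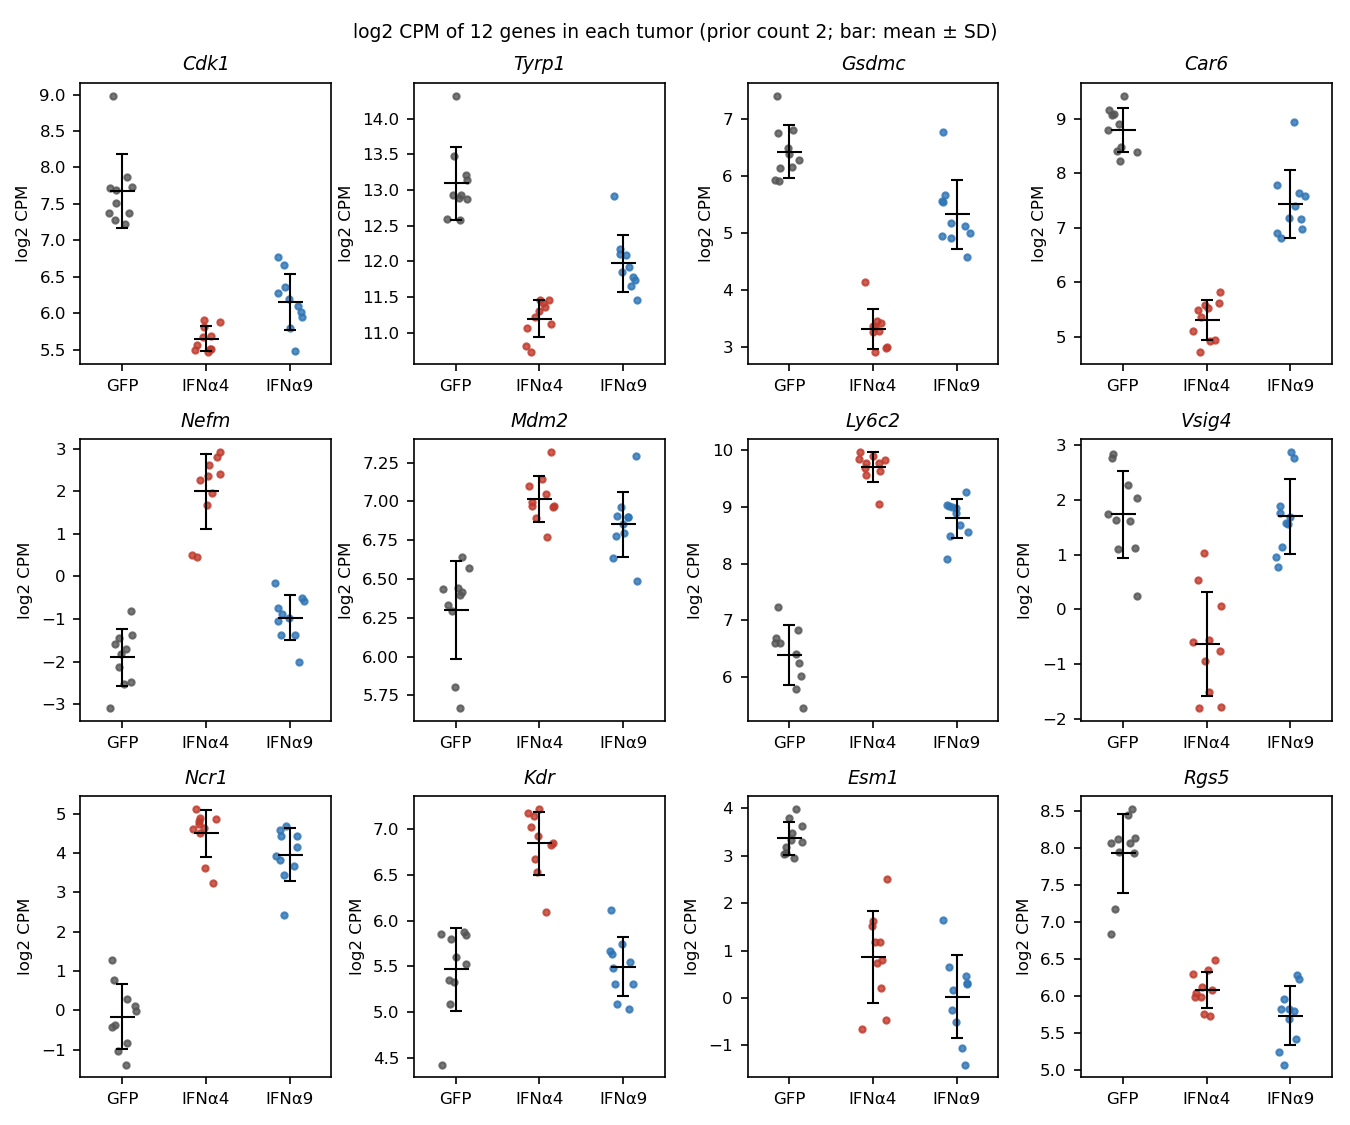
Log2 CPM (prior count 2) of 12 genes in each tumor by type, with bars for the mean ± SD. Gsdmc, Car6, Cdk1 and Tyrp1 were lower and Ly6c2, Ncr1 and Mdm2 higher in every IFNα4 tumor than in every control, as were Nefm and Kdr, and Vsig4 had its lowest median in IFNα4 tumors, with ranges that overlapped.

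Readouts of signaling pathways were called no more often than genes at large. Of 26 genes of the Hedgehog, Wnt and Notch readouts 7 rose and 5 fell, both below the shares over all genes. The Notch targets Hey2 (−1.75) and Heyl (−1.60) fell without overlap, while Hes1 did not pass (log2 fold change 0.18 ± 0.15 (SE), adjusted p = 0.289). The Wnt genes Axin2, a direct target (0.71), and Dkk2, a secreted modulator, rose, the latter from 1.6 to 17.4 CPM (median 13.8) to 21.4 to 43.4 CPM (median 32.7) (log2 fold change 1.42 ± 0.24 (SE), adjusted p = 8.16e-06). Of 25 MAPK and immediate early genes 6 rose and 7 fell, or 6 and 6 with scaling by library totals, again below those shares. The ERK phosphatase Dusp4 was at 52.4 to 94.8 CPM (median 66.6) in control tumors and 17 to 25.1 CPM (median 19.8) in IFNα4 tumors (log2 fold change −1.77 ± 0.14 (SE), adjusted p = 4.54e-12), whereas the immediate early gene Ier5 (1.25) and the mRNA decay factor Zfp36 (1.10) rose without overlap. Of 20 imprinted growth genes 7 rose, near the share over all genes, and 5 fell, below it. Dlk1 and Meg3, neighbors in one imprinted domain on chromosome 12, rose (1.51 and 1.40), Peg10 fell (log2 fold change −1.43 ± 0.17 (SE), adjusted p = 2.6e-08), and H19 did not pass (log2 fold change 0.12 ± 0.22 (SE), adjusted p = 0.659). Dlk1 was at 3.09 to 29.7 CPM (median 12.1) in IFNα4 tumors against 0.54 to 4.81 CPM (median 1.35) in IFNα9 tumors (2.93 ± 0.35 (SE), adjusted p = 7.16e-07).

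Outside all lists, the 12 largest falls among protein-coding genes whose tumors did not overlap were led by Dhrs2, a short-chain dehydrogenase, at 5.41 to 22.7 CPM (median 10.6) in control tumors and 0.0511 to 0.582 CPM (median 0.218) in IFNα4 tumors (log2 fold change −5.37 ± 0.36 (SE), adjusted p = 1.15e-13), and by the ABC transporter gene Abca13 (−5.11). The most abundant was Car6, secreted carbonic anhydrase, at 299 to 689 CPM (median 463) in control tumors and 26.3 to 56.2 CPM (median 42.6) in IFNα4 tumors. Car6 had a log2 fold change of −3.51 ± 0.24 (SE), adjusted p = 1.46e-13. The others were Slc22a14, Azgp1, Hkdc1, Veph1, Fndc3c1, Sema5b, Matn3, Fnd3c2 and Hoxa11, with log2 fold changes of −4.02 to −3.35. Fndc3c1 and Fnd3c2 are X-linked genes of one family (−3.45 and −3.38). Of these 12 genes 11 were also lower with IFNα4 than with IFNα9, Car6 by −2.25 ± 0.22 (SE), adjusted p = 7.14e-08, and Slc22a14 did not pass. Chosen after its values were seen, the gasdermin C cluster on chromosome 15 fell as well. Gsdmc was at 60.1 to 169 CPM (median 80.2) in control tumors and 7.44 to 17.4 CPM (median 9.82) in IFNα4 tumors (log2 fold change −3.15 ± 0.24 (SE), adjusted p = 1.97e-12), and its neighbors Gsdmc2 (−2.91), Gsdmc3 (−3.01) and Gsdmc4 (−2.83) had similar log2 fold changes. They encode pore-forming proteins of near-identical sequence, so the split of reads among them is uncertain. All 4 were lower than in IFNα9 tumors too, Gsdmc by −2.12 ± 0.23 (SE), adjusted p = 2.13e-07.

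The 12 largest rises outside the lists were mostly leukocyte genes. They held the NK receptors Klrb1f, Klrc3 and Klra6, the NK signaling adaptor Sh2d1b2, the activation marker Cd69 (4.58), the lymphocyte genes Gimap7 and Ms4a4b (4.80), the B cell gene Fcrl5 (4.98), and 2 ISG relatives, Slfn4 (5.04) and Ifit1bl2 (4.54). Genes of the Klr and Klra families are near copies, so single members are uncertain. The remaining 2 are known from other tissues: Cngb3, a channel subunit of cone photoreceptors, was at 0 to 0.33 CPM (median 0) in control tumors and 4.99 to 8.87 CPM (median 6.21) in IFNα4 tumors (log2 fold change 6.64 ± 0.37 (SE), adjusted p = 3.14e-15), and Nr5a1, a steroidogenic transcription factor, was at 0 to 0.375 CPM (median 0.111) in control tumors and 2.26 to 5.77 CPM (median 3.04) in IFNα4 tumors. Nr5a1 had a log2 fold change of 4.57 ± 0.37 (SE), adjusted p = 8.4e-12. Of the 12 genes 8 were also higher with IFNα4 than with IFNα9, Cngb3 by 1.40 ± 0.25 (SE), adjusted p = 0.000161, and 1 was lower, Nr5a1 (−1.15 ± 0.27 (SE), adjusted p = 0.00285).

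Antigen presentation by MHC class I rose: 20 of 22 genes rose, 19 by at least 2-fold, with a median of 1.91. B2m, the light chain of all class I molecules, was at 1017 to 2049.5 CPM (median 1603) in control tumors and 4609 to 7904 CPM (median 5645) in IFNα4 tumors. B2m had a log2 fold change of 1.92 ± 0.13 (SE), adjusted p = 3.26e-13. The peptide transporter Tap1 (2.23), the class I transactivator Nlrc5 (2.31) and H2-K1 (2.20) rose, and H2-Q6 (3.17) and H2-Q7 (2.97), similar genes that may share reads, rose by more. The chaperones Calr (−0.41) and Pdia3 (−0.21), which also serve the general folding of proteins, fell, the latter close to the threshold (adjusted p = 0.0465), and it did not pass in 7 of 8 other settings, among them without control tumor 7 (adjusted p = 0.107). Many genes of this list are themselves induced by interferon. Of 12 MHC class II genes 10 rose and 0 fell with a lower median of 0.77. H2-Ab1 was at 87.8 to 344 CPM (median 224) in control tumors and 300.5 to 424 CPM (median 332) in IFNα4 tumors, overlapping (log2 fold change 0.54 ± 0.18 (SE), adjusted p = 0.00831), and Cd40, a costimulatory receptor of antigen-presenting cells, rose without overlap (log2 fold change 1.64 ± 0.21 (SE), adjusted p = 6.4e-08).

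Leukocyte genes rose: 17 of 18 pan-leukocyte genes were higher, 16 by at least 2-fold, with a median of 1.57. Ptprc, CD45, was at 19.5 to 118 CPM (median 83.8) in control tumors and 292 to 768 CPM (median 495) in IFNα4 tumors. Ptprc had a log2 fold change of 2.66 ± 0.24 (SE), adjusted p = 6.24e-11. The exception, Arhgdib, fell (−0.45). The monocyte list rose by more, with 19 of 21 genes higher, 18 by at least 2-fold, and a median of 2.13. Ly6c2, which marks classical monocytes, was at 43.8 to 151 CPM (median 91) in control tumors and 529 to 997 CPM (median 878) in IFNα4 tumors. Ly6c2 had a log2 fold change of 3.25 ± 0.18 (SE), adjusted p = 2.16e-15. Their chemokine receptor Ccr2 (1.91), the membrane gene Ms4a4c (4.04) and Cd300e (4.92), an activating receptor, all rose without overlap. Of the 21 genes 13 were also higher than in IFNα9 tumors, Ly6c2 by 0.89 ± 0.17 (SE), adjusted p = 0.0003, and 0 were lower. Ly6c2 responds to interferon itself, so cell number cannot be read from it.

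Of 31 genes of tumor-associated macrophages (TAMs) tested, 9 rose and 11 fell, with a median of −0.34, and both counts were near the shares over all genes, so nothing is read from them. Without control tumor 7, 9 rose and 17 fell, and with scaling by library totals or the DESeq2 test 11 rose and 11 fell. Csf1r, the growth factor receptor of macrophages, was at 37.8 to 252 CPM (median 171) in control tumors and 116 to 159.6 CPM (median 131) in IFNα4 tumors and did not pass (log2 fold change −0.28 ± 0.18 (SE), adjusted p = 0.182), but passed without control tumor 7 (adjusted p = 0.0104). Cd163, a scavenger receptor, did not pass (log2 fold change −0.19 ± 0.25 (SE), adjusted p = 0.528), and Mrc1, the mannose receptor CD206, was at 97.6 to 434 CPM (median 361) in control tumors and 118 to 269 CPM (median 189) in IFNα4 tumors and fell with overlap (log2 fold change −0.78 ± 0.21 (SE), adjusted p = 0.00201). Vsig4, a complement receptor of resident macrophages, was at 1.07 to 6.97 CPM (median 3.11) in control tumors and 0.17 to 1.92 CPM (median 0.512) in IFNα4 tumors. Vsig4 had a log2 fold change of −2.43 ± 0.39 (SE), adjusted p = 4.29e-06. IFNα9 tumors had Vsig4 at 1.59 to 7.17 CPM (median 2.98), and the direct difference was −2.36 ± 0.39 (SE), adjusted p = 7.67e-05. In that direct test 11 of the 31 genes were lower with IFNα4 than with IFNα9, against 10.5% of all genes, and 1 was higher (11 and 2 without control tumor 7). The Fcγ receptor gene Fcgr1, which interferon induces, rose from 11.9 to 51.8 CPM (median 33.2) to 126 to 278 CPM (median 189.5) (log2 fold change 2.55 ± 0.18 (SE), adjusted p = 4.54e-13), and the scavenger receptor Msr1 rose (1.49).

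In the list of the M2 and IL-4 response, genes also differed in direction, with 16 of 32 higher and 10 lower, the latter near the share over all genes. The eosinophil chemokine Ccl24 fell (log2 fold change −2.19 ± 0.39 (SE), adjusted p = 1.99e-05), as did the lectin Clec10a (−0.86). The risers included Ccl7 (2.27), a ligand of CCR2, Chil3 (2.27), which monocytes also express, and the lipoxygenase Alox15 (2.36). The receptor gene Il4ra was at 34.98 to 203 CPM (median 109) in control tumors and 88.9 to 150.5 CPM (median 116) in IFNα4 tumors and did not pass (log2 fold change 0.08 ± 0.19 (SE), adjusted p = 0.734), and Il4 itself, chosen after its values were seen, was at 1.15 to 3.74 CPM (median 2.04) in control tumors and 1.1 to 2.56 CPM (median 1.71) in IFNα4 tumors and did not pass (log2 fold change −0.25 ± 0.20 (SE), adjusted p = 0.281). Mgl2 did not pass against controls (log2 fold change 0.18 ± 0.22 (SE), adjusted p = 0.485) but was lower than in IFNα9 tumors (−0.93 ± 0.22 (SE), adjusted p = 0.00332). In the direct test 12 of the 32 genes were lower with IFNα4 than with IFNα9, against 10.5% of all genes. Another 4 were higher, against 7.22% of all genes, and without control tumor 7 the counts were 13 and 5.

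Ratios of 2 markers within a tumor hardly depend on the scaling of libraries. The log2 ratio of Ly6c2 to Csf1r ran from −1.37 to 0.21 in controls and from 2.04 to 2.93 in IFNα4 tumors, with means of −0.78 ± 0.48 and 2.67 ± 0.27 (SD, n = 10 each) and a difference of 3.45 (two-sided permutation test, adjusted p = 5e-05 over 5 ratios). Mrc1 to Csf1r differed by −0.55, at 0.48 ± 0.35 against 1.03 ± 0.33 (SD, n = 10 each), with overlap (permutation test, adjusted p = 0.0037). Ncr1 to Cd3e, an NK against a T cell gene, was at −1.52 ± 0.72 in controls and 0.99 ± 0.41 in IFNα4 tumors (SD, n = 10 each), a difference of 2.52 without overlap (permutation test, adjusted p = 5e-05). Cd8a to Cd4 did not pass (difference 1.10, permutation test, adjusted p = 0.051), and its size depended on the 0.1 CPM added where Cd8a was near 0: with 0.5 CPM added it was 0.51 (permutation test, adjusted p = 0.43). Col1a1 to Pdgfrb did not pass either (−0.28, permutation test, adjusted p = 0.081). The last passed without control tumor 7 (−0.35, permutation test, adjusted p = 0.03), and the 3 planned ratios to Sox10 were not computed since that gene was not analysed here. The unadjusted p of the Ly6c2 and Ncr1 ratios, 2e-05, is the smallest that 100000 resamples can give.

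**Figure D5:**
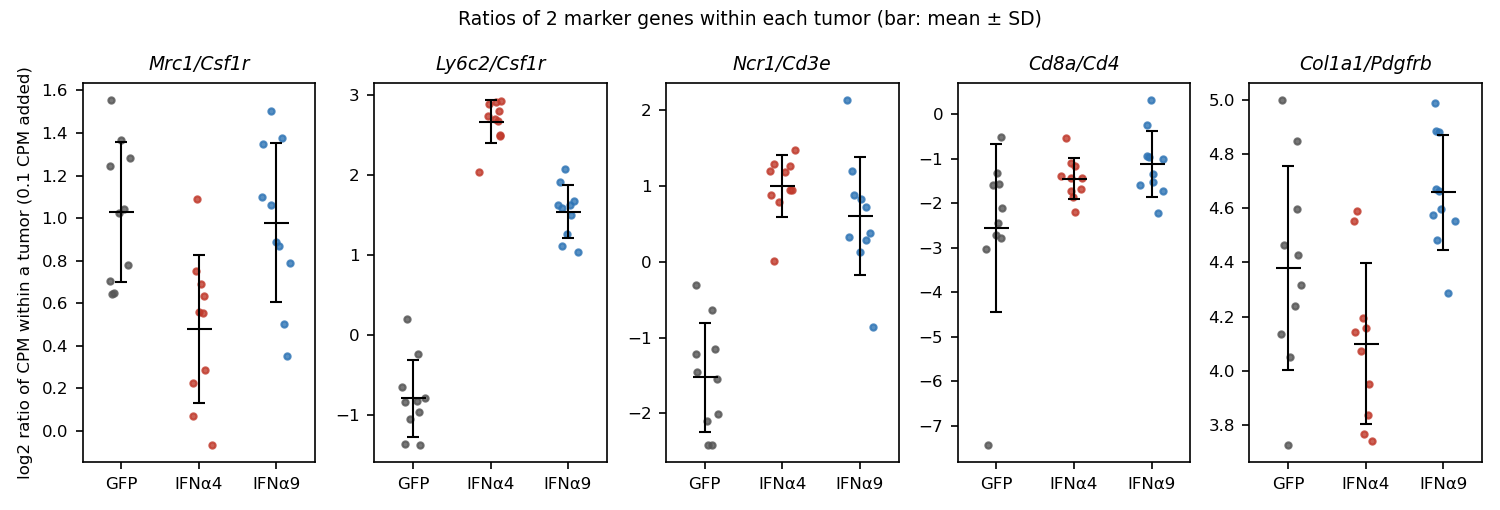
Log2 ratio of the CPM of 2 marker genes within each tumor (0.1 CPM added), one panel per ratio, with bars for the mean ± SD of each type. All 10 IFNα4 tumors lay above all 10 controls for Ly6c2/Csf1r and Ncr1/Cd3e, and the groups overlapped for the other 3 ratios.

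NK cell genes had the highest median of all lists, 3.67: all 24 tested rose, each by at least 2-fold, and for 22 the tumors did not overlap. Ncr1, the activating receptor NKp46, was at 0.267 to 2.31 CPM (median 0.763) in control tumors and 9.33 to 34.7 CPM (median 25.5) in IFNα4 tumors. Ncr1 had a log2 fold change of 4.67 ± 0.33 (SE), adjusted p = 3.89e-13. Eomes, a transcription factor of NK cells and CD8 T cells, was at 0.625 to 3.52 CPM (median 1.28) in control tumors and 6.28 to 31.1 CPM (median 15.03) in IFNα4 tumors. Eomes had a log2 fold change of 3.41 ± 0.29 (SE), adjusted p = 3.35e-11. The inhibitory and activating Ly49 receptors Klra4 (5.24), Klra8 (4.86) and Klra7 (4.80) had the largest fold changes, with shared sequence among them. Of the 24 genes 12 were higher with IFNα4 than with IFNα9 and 0 lower (17 and 1 without control tumor 7), Klra4 by 1.25 ± 0.27 (SE), adjusted p = 0.00157, and Ncr1 did not pass (0.52 ± 0.27 (SE), adjusted p = 0.179).

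T cell genes rose as well, 29 of 31 with 0 lower and a median of 2.68. Cd3e, part of the T cell receptor complex, was at 0.712 to 4.84 CPM (median 2.62) in control tumors and 6.29 to 15.3 CPM (median 11.9) in IFNα4 tumors (log2 fold change 2.11 ± 0.23 (SE), adjusted p = 3.51e-09), and Cd8a was at 0 to 2.09 CPM (median 0.607) in control tumors and 4.72 to 12.3 CPM (median 7.19) in IFNα4 tumors. Cd8a had a log2 fold change of 3.37 ± 0.40 (SE), adjusted p = 2.19e-08. Cd4, which macrophages can also express, overlapped through control tumor 8 at 46.4 CPM (log2 fold change 1.48 ± 0.48 (SE), adjusted p = 0.00819). Txk, a kinase of T and NK cells, was at 0.219 to 0.734 CPM (median 0.627) in control tumors and 6.51 to 22.6 CPM (median 13.9) in IFNα4 tumors. Txk had a log2 fold change of 4.61 ± 0.28 (SE), adjusted p = 1.46e-14. Between IFNα4 and IFNα9 tumors 5 of the 31 genes were higher with IFNα4, 9 without control tumor 7 and 12 in a fit of those tumors alone, and Cd3e (0.12 ± 0.21 (SE), adjusted p = 0.743) and Cd8a (0.38 ± 0.34 (SE), adjusted p = 0.498) did not pass. Of 24 checkpoint and exhaustion genes 18 rose and 2 fell. Cd274, the ligand PD-L1, which interferon induces, was at 5.07 to 33.9 CPM (median 21.01) in control tumors and 91.8 to 189.9 CPM (median 143) in IFNα4 tumors (log2 fold change 2.73 ± 0.25 (SE), adjusted p = 1.29e-10), and Tox (2.62), Havcr2 (1.89) and Pdcd1, PD-1 (1.60), rose. The orphan receptor Nr4a3 fell from 111 to 283 CPM (median 136) to 73.8 to 113 CPM (median 81.4) (log2 fold change −0.80 ± 0.13 (SE), adjusted p = 4.81e-06). Of 12 regulatory T cell genes 9 rose, with Foxp3 at 0.089 to 1.56 CPM (median 0.688) in control tumors and 1.17 to 5.07 CPM (median 3.61) in IFNα4 tumors (log2 fold change 2.18 ± 0.34 (SE), adjusted p = 2.55e-06) and Il10 at 7.2 to 20.7 CPM (median 10.1) in IFNα4 tumors (log2 fold change 2.40 ± 0.25 (SE), adjusted p = 1.29e-09).

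B cell genes were few: 7 of 12 rose, led by Pax5, the B lineage factor, at 0 to 0.437 CPM (median 0.221) in control tumors and 1.15 to 6.49 CPM (median 3.63) in IFNα4 tumors (log2 fold change 3.95 ± 0.38 (SE), adjusted p = 4.38e-10), while Jchain of plasma cells did not pass (log2 fold change 1.08 ± 0.54 (SE), adjusted p = 0.0766) except with the DESeq2 test (adjusted p = 0.0497). Of 16 genes of XCR1 dendritic cells 11 rose and 1 fell, 0 without control tumor 7. Xcr1 (1.40) and the dead-cell receptor Clec9a (1.07) rose with overlap, and the lineage factor Batf3 did not pass (log2 fold change 0.06 ± 0.23 (SE), adjusted p = 0.817). The larger rises in that list, Ifi205 (2.00), Tlr3 (1.69) and Irf8 (1.43), were of genes that interferon induces. Xcr1 was lower with IFNα4 than with IFNα9 (−0.69 ± 0.22 (SE), adjusted p = 0.0298). In the list of cDC2 and CCR7 dendritic cells 9 of 17 rose and 2 fell: Ccl5 (2.61) rose most, Ccr7 did not pass (log2 fold change 0.48 ± 0.23 (SE), adjusted p = 0.0721) but did with the DESeq2 test (adjusted p = 0.0458), and Ccl17, a chemokine of type 2 responses, fell at a low level (log2 fold change −0.84 ± 0.33 (SE), adjusted p = 0.0259) and was also lower than in IFNα9 tumors (−2.45 ± 0.32 (SE), adjusted p = 3.33e-06). Of 12 plasmacytoid dendritic cell genes 10 rose. Siglech, their surface marker, was at 0 to 1.7 CPM (median 0.903) in control tumors and 2.37 to 3.9 CPM (median 3.0) in IFNα4 tumors (log2 fold change 1.71 ± 0.31 (SE), adjusted p = 2.04e-05), and the largest rise was Klk1, a kallikrein, from 0 to 0.33 CPM (median 0.125) to 2.19 to 4.02 CPM (median 2.92) (log2 fold change 4.21 ± 0.31 (SE), adjusted p = 1e-12).

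Of 15 genes of ILC2s and type 2 cytokines 9 rose and 0 fell. Other cells express several of them, so the number of ILC2s cannot be read from these counts. By single-cell RNA-seq the study reported fewer ILC2s in IFNα4 tumors than in controls. Il1rl1, the receptor for IL-33, was at 8.37 to 39.8 CPM (median 26.8) in control tumors and 38.4 to 266 CPM (median 158) in IFNα4 tumors. Il1rl1 had a log2 fold change of 2.57 ± 0.29 (SE), adjusted p = 1.19e-08. Its IFNα9 level was 10.4 to 76.1 CPM (median 44.4), and the direct difference was 1.89 ± 0.29 (SE), adjusted p = 2.3e-05. Icos (2.60) and Klrg1 (2.31), which T and NK cells also express, rose, Gata3, which skin expresses too, rose by less (0.73), and Il33 did not pass (log2 fold change 0.10 ± 0.17 (SE), adjusted p = 0.617). Of 12 genes of mast cells, basophils and eosinophils 7 rose and 1 fell, 2 without control tumor 7. The eosinophil receptors Ccr3 (2.48) and Siglecf (1.83) rose from under 2 CPM, Ear1, an eosinophil ribonuclease gene with near copies, fell (−0.84), and the mast cell protease Cpa3 did not pass (log2 fold change −0.40 ± 0.18 (SE), adjusted p = 0.0556) except without control tumor 7 (adjusted p = 0.00817) or with the filterByExpr filter (adjusted p = 0.0429). Of 18 neutrophil genes 6 rose, near the share over all genes, and 4 fell, below it. Csf3r (2.02) and Acod1 (3.62), which monocytes share, rose, S100a8 fell (−0.72), and Cxcr2 did not pass (log2 fold change 0.23 ± 0.31 (SE), adjusted p = 0.518).

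Inflammatory cytokines and NF-κB targets rose, 25 of 30 with 0 lower and a median of 1.04. Tnf was at 0.712 to 4.07 CPM (median 2.68) in control tumors and 10.9 to 23.3 CPM (median 15.7) in IFNα4 tumors (log2 fold change 2.63 ± 0.21 (SE), adjusted p = 5.67e-12), and the immunoregulatory cytokine subunit Il27 was at 0 to 0.601 CPM (median 0.21) in control tumors and 0.806 to 3.35 CPM (median 2.18) in IFNα4 tumors. Il27 had a log2 fold change of 3.22 ± 0.43 (SE), adjusted p = 1.89e-07. Il1b (0.67), Il6 (0.73) and Nos2, inducible nitric oxide synthase (1.34), rose by less and with overlap, and Nos2 was lower than in IFNα9 tumors (−1.04 ± 0.36 (SE), adjusted p = 0.0439). Of the 30 genes 13 were higher with IFNα4 than with IFNα9, Tnf by 0.94 ± 0.19 (SE), adjusted p = 0.000896.

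Chemokines moved in both directions, 14 of 29 higher and 5 lower. The CXCR3 ligands Cxcl9 and Cxcl11, which draw NK and T cells, rose, Cxcl9 from 9.26 to 53.4 CPM (median 18.6) to 232 to 569.5 CPM (median 374) (log2 fold change 4.11 ± 0.31 (SE), adjusted p = 2.71e-12). The CCR2 ligand Ccl2 was at 22.1 to 61.4 CPM (median 40.97) in control tumors and 104 to 238 CPM (median 189.6) in IFNα4 tumors (log2 fold change 2.11 ± 0.16 (SE), adjusted p = 2.62e-12), and the chemokine Ccl4 was at 1.04 to 2.93 CPM (median 1.88) in control tumors and 12.6 to 40.3 CPM (median 23.5) in IFNα4 tumors. Ccl4 had a log2 fold change of 3.78 ± 0.22 (SE), adjusted p = 6.88e-15. Ccl8, which type 2 macrophages make, fell from 59.6 to 343 CPM (median 169) to 53.1 to 75.7 CPM (median 67.9) (log2 fold change −1.60 ± 0.21 (SE), adjusted p = 1.29e-07). Cxcl9 did not pass between the interferon types (0.19 ± 0.28 (SE), adjusted p = 0.689), whereas Ccl4 was higher with IFNα4 (1.79 ± 0.20 (SE), adjusted p = 2.29e-07). Of 23 complement genes 16 rose and 3 fell, 6 without control tumor 7. C2, of the classical pathway, was at 26.4 to 38.5 CPM (median 33.1) in control tumors and 90.9 to 129 CPM (median 108) in IFNα4 tumors (log2 fold change 1.73 ± 0.10 (SE), adjusted p = 3.94e-15), and Cfb (1.81), C4b (1.30) and the receptor C3ar1 (2.15) rose without overlap, while C6 (−1.26) and macrophage C1qc (−0.58) were among those that fell. Of 27 cell death effectors 20 rose and 4 fell, with the death ligands Fasl at 0 to 0.825 CPM (median 0.383) in control tumors and 2.25 to 12.1 CPM (median 7.29) in IFNα4 tumors (log2 fold change 3.98 ± 0.33 (SE), adjusted p = 1.82e-11) and Tnfsf10, TRAIL (2.49), and the necroptosis effector Mlkl (1.28), among the risers.

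Endothelial genes fell more often than they rose. Of 36 tested, 21 fell and 8 rose, with a median of −0.50. Esm1, a marker of sprouting tip cells, was at 7.56 to 15.7 CPM (median 9.76) in control tumors and 0.518 to 5.61 CPM (median 1.89) in IFNα4 tumors. Esm1 had a log2 fold change of −2.32 ± 0.34 (SE), adjusted p = 9.03e-07. The junction genes Cdh5, VE-cadherin, at 44.5 to 99.95 CPM (median 65.3) in control tumors and 23.4 to 47.5 CPM (median 39.7) in IFNα4 tumors (log2 fold change −0.84 ± 0.18 (SE), adjusted p = 0.000208) and Pecam1 (log2 fold change −0.43 ± 0.13 (SE), adjusted p = 0.00483) fell with overlap, as did Gpihbp1 of capillaries (−1.57). Kdr, the VEGF receptor 2, went the other way, at 21.4 to 58.6 CPM (median 47.2) in control tumors and 68.1 to 149 CPM (median 118) in IFNα4 tumors, without overlap (log2 fold change 1.35 ± 0.16 (SE), adjusted p = 1.55e-08), and the adhesion molecule Sele rose (1.43). In IFNα9 tumors Kdr was at 32.6 to 68.96 CPM (median 45.7), and the direct difference was 1.35 ± 0.16 (SE), adjusted p = 6.08e-07. In that direct test 14 of the 36 genes were higher with IFNα4 and 3 lower, and Cdh5 was higher by 0.66 ± 0.18 (SE), adjusted p = 0.011. Rgs5, a regulator of pericytes, was at 114 to 369.8 CPM (median 268) in control tumors and 53.3 to 90.1 CPM (median 66.6) in IFNα4 tumors (log2 fold change −1.90 ± 0.17 (SE), adjusted p = 9.71e-11), and Higd1b (−1.43) and Cox4i2 (−1.70), also pericyte genes, fell, but 4 of 12 genes of pericytes and smooth muscle fell in all and Notch3 (log2 fold change −0.05 ± 0.19 (SE), adjusted p = 0.812) and Cspg4 (log2 fold change 0.16 ± 0.22 (SE), adjusted p = 0.525) did not pass.

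Hemoglobin and heme genes fell beside the vascular genes: all 5 erythroid genes fell, with a median of −1.91. Their summed level was 545 to 3010.1 CPM in controls and 184.5 to 899.8 CPM in IFNα4 tumors, and tumors of both types overlapped. Hba-a1 and Hba-a2 are near copies, so the split of reads between them is uncertain. Blood left in the vessels of the dissected tissue was not measured, and its part in the endothelial values was not tested.

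Of 44 collagen and matrix genes 14 rose, near the share over all genes, and 5 fell, 1 and 2 of them by at least 2-fold. The fibrillar collagens Col1a1 at 538 to 2528 CPM (median 1438) in control tumors and 1206 to 2578 CPM (median 1554) in IFNα4 tumors (log2 fold change 0.08 ± 0.22 (SE), adjusted p = 0.76) and Col3a1 (log2 fold change −0.21 ± 0.17 (SE), adjusted p = 0.293) did not pass. Basement membrane Col4a1 fell (−0.54), Col17a1 of the epidermal junction rose (1.01), and Col9a1, a cartilage-type collagen, fell from 2.86 to 16.9 CPM (median 5.79) to 0.175 to 0.85 CPM (median 0.464) (log2 fold change −3.77 ± 0.30 (SE), adjusted p = 8.72e-12). Of 33 fibroblast genes 15 rose and 4 fell. The eosinophil chemokine Ccl11, which fibroblasts make, was at 28.1 to 83.1 CPM (median 61.5) in control tumors and 265 to 602 CPM (median 406) in IFNα4 tumors (log2 fold change 2.84 ± 0.20 (SE), adjusted p = 3.24e-13), and Ly6a, Sca-1, which interferon induces, was at 161 to 496 CPM (median 319.9) in control tumors and 1072 to 1484 CPM (median 1299.7) in IFNα4 tumors. Ly6a had a log2 fold change of 2.07 ± 0.14 (SE), adjusted p = 1.86e-13. Pdgfra (log2 fold change 0.37 ± 0.20 (SE), adjusted p = 0.0988) and Dpt (log2 fold change 0.34 ± 0.20 (SE), adjusted p = 0.136) did not pass, and the fall of Lrrc15, a myofibroblast marker (−1.45), rested on control tumors 1 and 2, the higher at 295 CPM, against a control median of 18.1 CPM. Of 31 metalloproteinases and inhibitors 10 rose, near that share, and 4 fell. Adam12, a membrane protease, was at 109.5 to 229 CPM (median 141) in control tumors and 19.9 to 41.01 CPM (median 26.1) in IFNα4 tumors (log2 fold change −2.42 ± 0.16 (SE), adjusted p = 6.85e-14), while Mmp13 (2.08) and Mmp2 (0.67) rose and Timp1 did not pass (log2 fold change 0.32 ± 0.17 (SE), adjusted p = 0.0982) except with scaling by library totals (adjusted p = 0.0439).

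Of 23 epidermis and hair genes 9 rose and 6 fell, the latter below the share over all genes. With the filterByExpr filter 9 rose and 4 fell. Krt10 of upper epidermis was at 324 to 2636 CPM (median 1680.0) in control tumors and 2522 to 3587 CPM (median 2933) in IFNα4 tumors (log2 fold change 0.92 ± 0.25 (SE), adjusted p = 0.00193) and basal Krt5 rose (0.63), while Krt14 did not pass (log2 fold change 0.45 ± 0.26 (SE), adjusted p = 0.128). The falls included hair keratins that only 2 controls held: Krt71 was at 893 CPM in control tumor 1 and 3808 CPM in control tumor 2 and at most 4.62 CPM in the other 18 tumors. Of 15 adipocyte genes 2 rose, Pparg, which macrophages also express, at 6.76 to 24.3 CPM (median 14.9) in control tumors and 35.8 to 51.3 CPM (median 40.9) in IFNα4 tumors (log2 fold change 1.43 ± 0.14 (SE), adjusted p = 6.94e-10) and the lipid droplet gene Plin4 (1.00), and Adipoq did not pass (log2 fold change 0.51 ± 0.28 (SE), adjusted p = 0.102). In the direct test 19 of the 23 skeletal muscle genes were higher with IFNα4 than with IFNα9, with a median difference of 0.98, and the part of muscle tissue in the other differences between those types was not tested.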

How the data were processed

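RNA from 30 whole tumors was sequenced, and the authors deposited 1 table of raw counts per gene and tumor, not normalized. The submitters' processing notes name FastQC 0.11.3, HISAT2 2.0.4 and the mm10 build. Gene names were matched to GENCODE M21 for 39495 of 39676 identifiers. Genes averaging 10 or more counts across the 20 tumors were fitted in all 30 tumors together, which share 1 estimate of the spread, with edgeR 4.0.16 (TMM scaling, quasi-likelihood test) in R 4.3.3, with Benjamini-Hochberg adjustment at 0.05 over all genes. DESeq2 1.42.0, other scalings and other filters were alternatives. CPM were scaled by TMM. Totals were 14598517 to 19788383 counts per tumor. Simulated data had 200 changed genes and the same spread for all genes. There, 91 of 99 changed genes of log2 size 1 and 12 of 100 of size 0.5 were recovered among 15789 genes. In the real data 65.6% of genes were called, so these recovery rates do not carry over to it. Named genes were the key markers of each list, the 3 DEGs with the largest change in it, its members against the majority direction where these were 3 or fewer, and the 12 largest rises and falls among protein-coding DEGs in no list with at least 2 CPM in the higher type and no overlap. The comparison, lists, marker ratios and motifs were chosen with earlier results of these data known. P-values measure the spread between these tumors. Some genes are not reported here.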

Additional observations from a re-analysis of the deposited data

Results flagged for a closer look

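In 27 of 108 groups of values a tumor lay far from the other 9 of its type, where chance gives about 1 in 20 groups, or 5.4. In 23 of them the tumor was control tumor 7. Its mean log2 CPM lay above the other controls for DNA replication (6.34), melanocyte genes (8.12) and the mitochondrial ribosome (6.28).

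Control tumor 7 lay below the other controls for the following lists, in mean log2 CPM. The lymphoid lists were T cells (−0.32), regulatory T cells (0.85), checkpoint genes (1.47) and ILC2 genes (1.18). The myeloid lists were monocytes (3.38), M2 genes (3.30), neutrophils (1.29), cDC2 and CCR7 dendritic cells (2.13), plasmacytoid dendritic cells (1.90) and mast cells, basophils and eosinophils (−0.65). The inflammatory lists were classical ISGs (4.10), chemokines (2.43), NF-κB targets (2.12), complement (4.42) and cell death effectors (4.20). The stromal and lineage lists were collagens (5.98), fibroblasts (4.80), metalloproteinases (4.04), neural crest genes (4.16) and imprinted genes (4.19).

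Among IFNα4 tumors, tumor 1 was high for complement (7.34), and tumor 8 was low for the log2 ratios of Ly6c2 to Csf1r (2.04) and Ncr1 to Cd3e (0.01). Control tumor 8 was low for the log2 ratio of Cd8a to Cd4 (−7.43), with Cd4 at 46.4 CPM.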

How the results depend on the processing

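The balance of higher and lower calls kept its direction in 46 of 48 lists under the other scalings, tests and filters, a fit of only the 20 tumors and without control tumor 7. The exceptions were ties: TAM genes had 11 higher and 11 lower with library totals and with the DESeq2 test, and MAPK genes 6 and 6 with library totals. With 0.5 instead of 0.1 CPM added, the Cd8a to Cd4 difference was 0.51 instead of 1.10. The DESeq2 test called 4 adipocyte genes instead of 2. In the direct test of IFNα4 against IFNα9, a fit of only the 20 tumors compared called 4332 genes, 1975 of them higher with IFNα4, and without control tumor 7 there were 1755 higher, against 1148. The Col1a1 to Pdgfrb ratio passed without control tumor 7 (−0.35). Replicate numbers did not pair the tumors: over 10 pairs the correlation of deviations ran from −0.271 to 0.228, 2 pairs were over 0.1, and 1 correlated best with its own number. With the replicate block 10257 genes were called against 10429. The MAPK list then had 15 calls (8 higher, 7 lower), TAM genes 21 (11 higher, 10 lower), epidermis and hair genes 13 (11 higher, 2 lower) and adipocyte genes 4. The Col1a1 to Pdgfrb ratio of −0.28 passed with the block (permutation test, adjusted p = 0.044). No named gene reversed. Of 300 genes, 10 lost and 4 gained their call under the block, and at most 6 lost it in any other setting. The losses under the block were C1qc, Cdkn1a, Col11a1, Ddx10, Krt71, Lrrc15, Mycn, Pdia3, S100a8 and Xbp1. The gains were Ccr7, Egr1, Pdgfra and Plin1. The causes were not tested. Depth limits genes under 1 CPM.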

Other observations

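Differences were spread over the genome. Relative to the median of all genes, chromosome medians of the log2 fold change ran from −0.138 on chromosome 6 and −0.137 on chromosome 15 to 0.181 on chromosome 19 and 0.197 on chromosome 13. Of 121 windows of 20 Mb, 108 had a median between −0.25 and 0.25. Long noncoding RNA genes held 0.681 to 1.14% of counts in control tumors and 1.05 to 1.22% in IFNα4 tumors.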
